A study of Rattus norvegicus with 8 samples.

Results

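The 38 genes described here are markers of the 3 main non-parenchymal cell types of the liver: 13 of Kupffer cells and other macrophages, 10 of endothelial cells, and 15 of hepatic stellate cells and the extracellular matrix they lay down. They were chosen by name, as known marker genes, with earlier results of these data known. Where a gene had several probe sets, the probe set with the highest mean over the 8 arrays was used. The array held a probe set naming a single gene for 14217 genes, 35 of the markers among them. Marco, Cdh5 and Cd34 had no such probe set, so their levels were not measured here. All 44 probe sets of the 35 markers carried an Entrez identifier whose current RefSeq symbol was the same.

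Livers came from male Sprague-Dawley rats, 8 weeks of age. For 4 weeks the control group drank sterilized distilled water and the other group drank hydrogen water, distilled water carrying dissolved molecular hydrogen at 0.7 mM. Each group was kept as 8 animals and was measured on 4 arrays, and the labels do not say which animals each array stands for or whether RNA was pooled, so p-values measure the spread between arrays. Whole-liver RNA was hybridized to a rat Affymetrix array of 31099 probe sets and summarised as MAS5 signals. Levels are given as log2(signal + 2.05) after quantile normalization, a scale that understates the change of dim transcripts. Every change is hydrogen water minus control.

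Kupffer cells are the resident macrophages of the liver sinusoids. They clear bacteria, dying red cells and immune complexes from portal blood, carry receptors such as Cd14 and Clec4f, and are a source of complement C1q. Liver sinusoidal endothelial cells form a fenestrated wall without a basement membrane, and their scavenger receptors Stab1, Stab2 and Lyve1 remove hyaluronan and other waste macromolecules. Stellate cells lie between endothelium and hepatocytes, store vitamin A with the help of Lrat, and on activation become myofibroblasts that make collagen, alpha-smooth muscle actin (Acta2) and the collagenase inhibitor Timp1.

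No marker of the 3 cell types passed the test between hydrogen water and control. Of the 31 markers that were bright enough to test, 0 reached an adjusted p under 0.05 in limma, beside 128 of 15521 tested probe sets over the whole array (0.825%). An unadjusted p under 0.05 was reached by 5 markers (16.1%), Cd14, Stab2 and Lyve1 with higher and Lyz2 and Bgn with lower means after hydrogen water, beside 1946 probe sets of the array (12.5%). Groups that did not overlap, with 4 arrays all above or all below the other 4, were seen for 1 marker, Cd14 (3.23%), beside 1161 probe sets (7.48%). The median change was 0.00 over the 31 markers and -0.00 over all tested probe sets. The 95% interval of the change lay within 1.5-fold in either direction for 21 of the 31 markers (67.7%) and for 61.7% of tested probe sets. In bulk liver, fewer cells of a type and less RNA per cell cannot be told apart. Leaving out hydrogen water array 2 gave 1 call, Lyve1, with a change of 0.51 and an adjusted p of 0.0375 in limma. That array was the hydrogen water array at the control level for Lyve1 (9.14), so leaving it out favours the call. Over the whole array, leaving out 1 array at a time gave 55 to 197 probe sets called. Without control 4 the count of markers with an unadjusted p under 0.05 was 3, and without any normalization between arrays the interval of only 7 markers lay within 1.5-fold. The same shares over all probe sets were not counted for these settings.

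**Figure D1:**
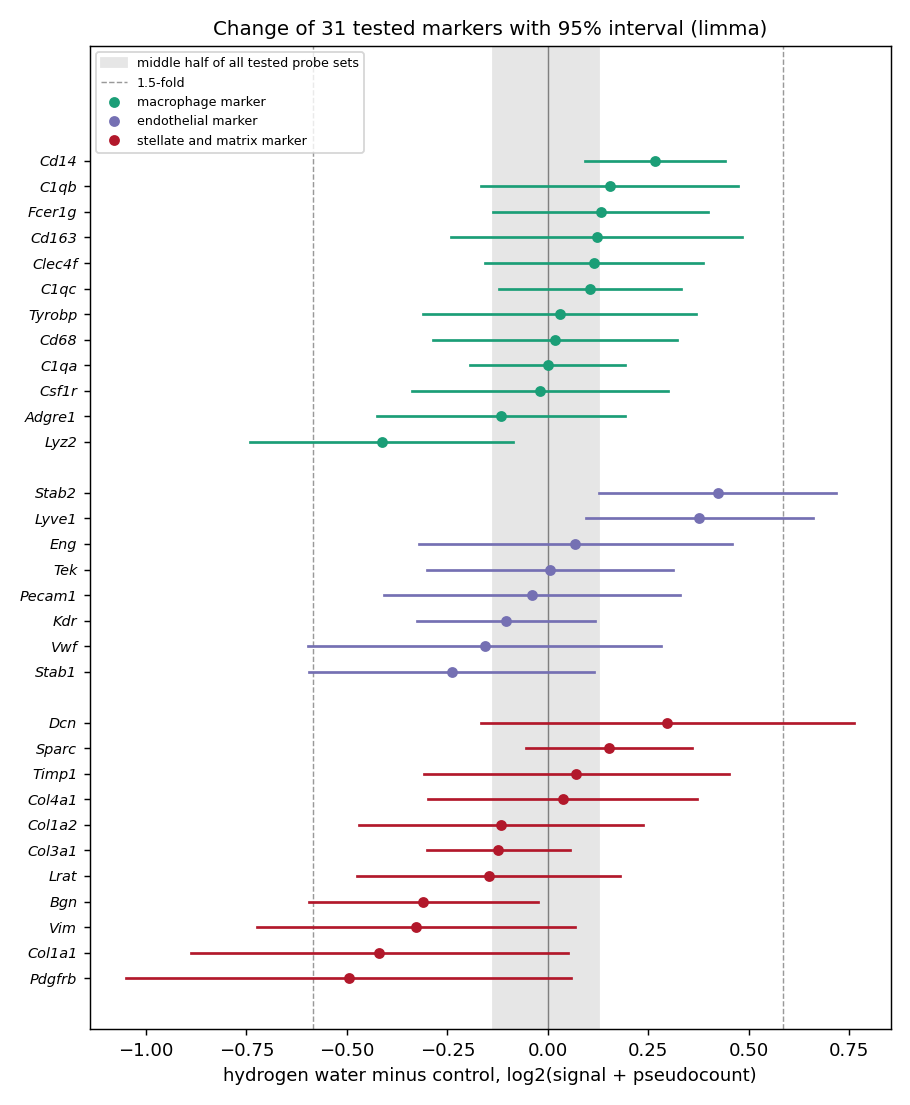
Change of the 31 tested markers, hydrogen water minus control on the log2(signal + pseudocount) scale (horizontal axis), with limma's 95% interval as a bar, coloured by cell type. The grey band spans the middle 50% of changes of all 15521 tested probe sets and dashed lines mark 1.5-fold. The intervals of Cd14, Lyz2, Stab2, Lyve1 and Bgn leave out 0 before adjustment for the number of probe sets.

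The arrays differed in brightness, with median signals of 17.2 to 26.8. The 2% trimmed mean was 115 ± 18.7 (SD, n = 4) in controls and 91.5 ± 10.4 after hydrogen water (exact two-sided permutation test, p = 0.114, smallest possible 0.0286). Gapdh probe sets at the 3′ and 5′ ends, whose ratio grows as RNA degrades, gave a log2 ratio of 0.22 ± 0.10 on control arrays and 0.38 ± 0.08 on hydrogen water arrays (exact permutation p = 0.0571). What part these differences had in the changes below was not tested. Without normalization the median change of all tested probe sets was -0.33, and the medians of the macrophage, endothelial and stellate markers were -0.28, -0.36 and -0.46.

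Brightness differed between the marker groups. All 12 macrophage markers with a probe set passed the brightness filter, a mean log2 level of at least 4.42, beside 9106 of 14217 genes on the array. Passing the filter does not show which cells made a transcript. Clec4f, the C-type lectin that is specific to Kupffer cells in rodents, lay between 10.02 and 10.57 on the 8 arrays. Among the endothelial markers all 8 with a probe set passed, Vwf and Pecam1 with the lowest means, 5.34 and 5.62. Fewer of the stellate and matrix markers were bright enough to test. Lrat, which esterifies retinol for storage, was measured at 6.19 to 6.81, whereas Des (desmin) at a mean of 4.19 and Acta2 at 4.25 lay just below the filter, and Lum (lumican) at 3.03 and Rgs4, a regulator of G-protein signalling, at 3.18 lay further below. No change is given for these 4 genes. The stellate group as tested is therefore Lrat, Pdgfrb and 9 genes of matrix and mesenchyme. In the further stellate and matrix list described below, 45 of 54 genes with a probe set passed. Among them were Reln and Colec11, with control means of 9.46 and 9.69.

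No macrophage marker passed the test, and most had small changes with narrow intervals. Over the 12 tested markers, 0 were called, the changes ran from -0.41 to 0.27 and their median was 0.07. The median was -0.012 without control 3, 0.16 without control 4, 0.11 without hydrogen water array 3 and 0.013 with array brightness as a covariate. The 95% interval lay within 1.5-fold for 11 of the 12 (91.7%), the exception being Lyz2. The direction of single markers depended on the scaling: without normalization Cd14, Fcer1g and C1qb had changes of -0.059, -0.21 and -0.18.

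Cd14, the co-receptor that hands bacterial lipopolysaccharide to Tlr4, had the smallest p among the markers. Its log2 levels on control arrays 1 to 4 were 9.59, 9.58, 9.37 and 9.55, and on hydrogen water arrays 1 to 4 they were 9.80, 9.83, 9.85 and 9.69. Every hydrogen water array lay above every control. The change was 0.27 ± 0.08 (SE, n = 4 per group), a 1.20-fold higher signal after quantile normalization, with an adjusted p of 0.171 in limma. It was -0.059 without normalization, against -0.33 for all probe sets.

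Lyz2, the lysozyme of macrophages and other myeloid cells, had the largest change of the group and the opposite sign. Control levels were 9.33, 8.76, 9.18 and 9.52, and hydrogen water levels were 8.68, 8.98, 8.69 and 8.78. Controls 1, 3 and 4 lay above all hydrogen water arrays and control 2 lay among them. The change was -0.41 ± 0.15 (SE), or 1.33-fold higher in controls, with an adjusted p of 0.268 in limma. With array brightness as a covariate it was -0.23. A neighbouring lysozyme gene on chromosome 7, Lyc2, carries Lyz2 as an older name in RefSeq, and signal from this paralogue cannot be told apart here.

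Fcer1g is the signalling chain shared by Fc receptors. Its levels were 8.72, 8.49, 8.33 and 8.87 in controls and 8.64, 8.85, 8.66 and 8.78 after hydrogen water. The hydrogen water arrays lay inside the range of the controls, and the change was 0.13 ± 0.12 (adjusted p = 0.741 in limma). It was 0.04 without control 3 and 0.22 without control 4. C1qb, 1 of the 3 chains of complement C1q, read 8.89, 8.93, 8.36 and 9.14 in controls and 8.93, 9.04, 8.93 and 9.03 after hydrogen water. Control 3 was the low array, and the change was 0.15 ± 0.14 (adjusted p = 0.746). It was -0.004 without control 3, 0.26 without control 4 and 0.021 with array brightness as a covariate.

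The other C1q chains and the remaining receptors sat closer to 0. C1qa had a change of -0.00 with a 95% interval of -0.19 to 0.19, among the tightest of the markers, and C1qc had 0.11 (-0.12 to 0.33). Clec4f had 0.12 (-0.16 to 0.39) and Cd163, the scavenger receptor for haemoglobin, had 0.12 (-0.24 to 0.48). Csf1r, the receptor for the growth factor that keeps macrophages alive, had -0.02 (-0.34 to 0.30). Cd68, a lysosomal glycoprotein, had 0.02 (-0.28 to 0.32), and Tyrobp, an adaptor of activating receptors, had 0.03 (-0.31 to 0.37). Adgre1, which encodes the F4/80 antigen, had -0.12 (-0.43 to 0.19). None of these intervals reached 1.5-fold.

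Sequence upstream of the start site was available from RefSeq (GRCr8) for 26 of the 38 markers. Marco and Cd34, which had no probe set, are among them and enter the counts below. Macrophage genes are known targets of PU.1, an ETS factor, so the 6 letters GAGGAA at the core of its site were searched on both strands, in windows of 300 bases from 250 before to 50 after the start. They were present in 7 of 10 macrophage windows, 3 of 6 endothelial windows and 2 of 10 stellate and matrix windows, and in 27.6% of all 33469 windows of the table. A match is a string of letters, not a bound site. The 250 bases before the start are shown for Cd14, Lyz2 and C1qb, the markers with the largest differences of the macrophage group and a C1q chain, 5′ to 3′, with matches in capitals (TTCCTC on the opposite strand). They lie on the minus strand at chr18:28611159-28611408, chr7:54798012-54798261 and chr5:154407828-154408077.
Cd14: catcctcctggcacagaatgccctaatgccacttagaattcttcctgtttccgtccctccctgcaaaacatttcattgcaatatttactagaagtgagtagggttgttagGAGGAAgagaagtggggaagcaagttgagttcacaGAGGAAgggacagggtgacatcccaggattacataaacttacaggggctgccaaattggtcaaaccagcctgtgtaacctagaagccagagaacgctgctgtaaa
Lyz2: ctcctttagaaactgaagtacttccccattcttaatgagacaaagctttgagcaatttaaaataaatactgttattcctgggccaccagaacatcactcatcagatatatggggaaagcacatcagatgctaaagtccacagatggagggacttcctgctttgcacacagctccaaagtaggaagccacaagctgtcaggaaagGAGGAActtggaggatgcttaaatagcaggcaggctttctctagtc
C1qb: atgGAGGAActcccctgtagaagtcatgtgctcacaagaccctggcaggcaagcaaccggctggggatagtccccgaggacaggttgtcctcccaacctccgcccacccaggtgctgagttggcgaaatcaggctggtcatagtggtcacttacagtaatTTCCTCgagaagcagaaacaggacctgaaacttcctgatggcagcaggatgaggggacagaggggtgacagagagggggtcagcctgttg
Cd14 has 2 matches, which begin 140 and 105 bases before the start. Lyz2 has 1, which begins 46 bases before it, and C1qb has 2, of which 1 is on the opposite strand. Whether the letters bear on the measured changes was not tested. Of the other motifs, CCAAT was in 6 of 10 macrophage, 3 of 6 endothelial and 6 of 10 stellate and matrix windows (37.5% of all windows). In the same order, GGGCGG was in 2 of 10, 2 of 6 and 5 of 10 (33.1%). TATAAA was in 1 of 10, 0 of 6 and 3 of 10 (14.2%).

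No endothelial marker passed the test, and the 3 scavenger receptors had changes of both signs. Over the 8 tested markers, 0 were called, 2 had an unadjusted p under 0.05, the changes ran from -0.24 to 0.42 and their median was -0.02, with -0.07 to 0.0072 when 1 array was left out. The interval lay within 1.5-fold for 4 of the 8.

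Stab2, stabilin-2, is the main receptor for hyaluronan clearance on sinusoidal endothelium. Its levels were 8.01, 7.95, 8.11 and 8.11 in controls and 8.70, 8.54, 8.58 and 8.05 after hydrogen water. Hydrogen water arrays 1 to 3 lay above all controls, and array 4 lay among them. The change was 0.42 ± 0.13 (SE), 1.34-fold, with an adjusted p of 0.205 in limma. Lyve1, a hyaluronan receptor of sinusoidal and lymphatic endothelium, read 9.25, 9.09, 9.13 and 9.20 in controls and 9.80, 9.14, 9.69 and 9.55 after hydrogen water. Here arrays 1, 3 and 4 were high and array 2 was at the control level. The change was 0.38 ± 0.13, 1.30-fold, with an adjusted p of 0.234. A second Lyve1 probe set showed the same order of groups, with 8.79, 8.71, 8.72 and 8.76 in controls and 9.14, 8.76, 9.16 and 9.03 after hydrogen water. Its change was 0.28 ± 0.10 (adjusted p = 0.272 in limma), and array 2 was again the lowest of the hydrogen water arrays. Without normalization the changes of Stab2 and Lyve1 were 0.08 and 0.05.

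Stab1, stabilin-1, is the close relative of Stab2 that endothelium shares with some macrophages. It read 6.93, 7.09, 7.57 and 7.54 in controls and 7.26, 7.08, 6.95 and 6.89 after hydrogen water. Controls 3 and 4 were the high arrays, and controls 1 and 2 lay among the hydrogen water arrays. The change was -0.24 ± 0.16 (adjusted p = 0.613 in limma), and it was -0.14 without control 3, -0.15 without control 4 and 0.034 without both. The change of Stab2 exceeded that of Stab1 by 0.66, and the ratio of the 2 signals within an array did not overlap between groups (exact two-sided permutation p = 0.0286, the smallest possible with 70 arrangements, higher in 4 of 4 hydrogen water arrays). Adjusted over the 10 marker pairs compared in this way, a comparison added after the data were seen, p was 0.286. With a smallest possible p of 0.0286, a single pair among 10 cannot pass this adjustment, so it does not decide the difference.

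Kdr, the main receptor for vascular endothelial growth factor, read 10.16, 9.90, 9.84 and 10.18 in controls and 9.83, 10.10, 9.84 and 9.90 after hydrogen water. The groups overlapped, with a change of -0.10 ± 0.10 (adjusted p = 0.754 in limma). Leaving out single arrays gave -0.058 without control 1, -0.050 without control 4, and -0.16 without control 3 or without hydrogen water array 2. Tek, the receptor for angiopoietins, had a change of 0.00 (95% interval -0.30 to 0.31) and Eng, a co-receptor for transforming growth factor beta, had 0.07 (-0.32 to 0.46). Pecam1, a junction protein of all endothelium, had -0.04 (-0.41 to 0.33), and Vwf, the clotting factor of endothelium outside the sinusoids, had -0.16 (-0.60 to 0.28).

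The upstream bases of Stab2 and Lyve1, the endothelial markers with the largest changes, are shown in the same way. They lie on the minus strand at chr7:23320563-23320812 and chr1:174410978-174411227.
Stab2: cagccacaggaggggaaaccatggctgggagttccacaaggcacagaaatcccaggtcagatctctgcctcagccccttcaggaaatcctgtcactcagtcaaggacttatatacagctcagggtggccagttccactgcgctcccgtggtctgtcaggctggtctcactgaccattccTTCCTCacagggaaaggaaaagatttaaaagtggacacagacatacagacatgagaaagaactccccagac
Lyve1: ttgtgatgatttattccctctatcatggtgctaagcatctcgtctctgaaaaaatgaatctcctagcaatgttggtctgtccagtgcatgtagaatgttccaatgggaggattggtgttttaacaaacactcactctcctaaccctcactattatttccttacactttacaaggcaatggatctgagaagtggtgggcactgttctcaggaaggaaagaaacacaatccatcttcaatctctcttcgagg
Stab2 has 1 match of the searched letters, on the opposite strand, and Lyve1 has 0. Any link between the letters and the changes of these genes was not tested.

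**Figure D2:**
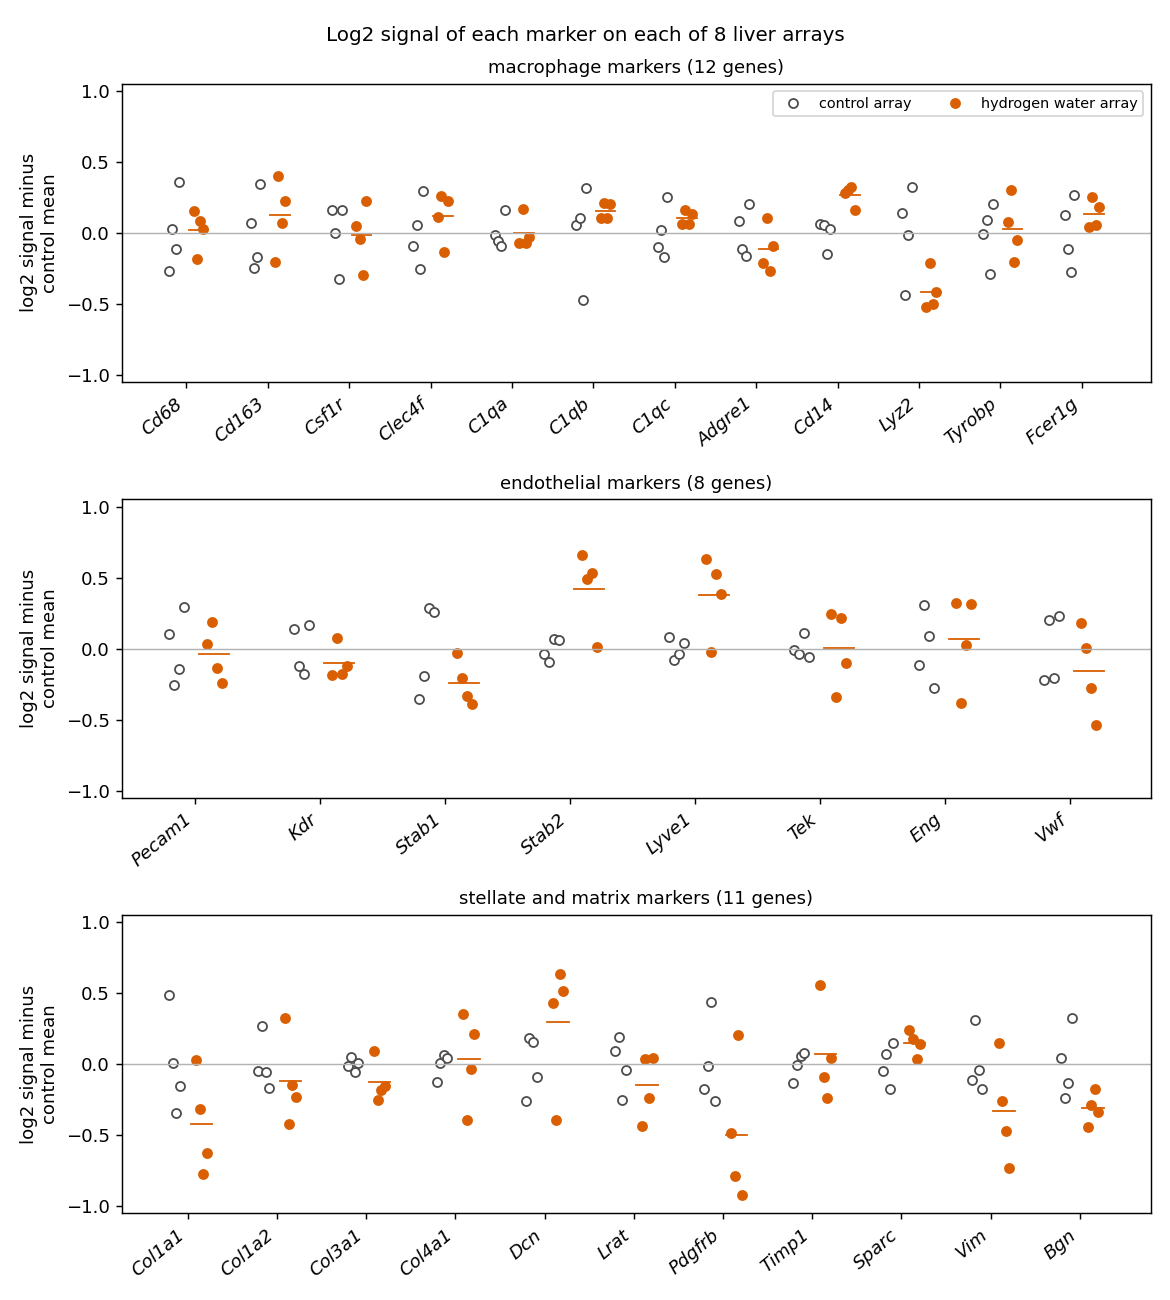
Log2(signal + pseudocount) of the 31 tested markers minus each gene's control mean (vertical axis), in a panel for each cell type, with an open point for each of the 4 control arrays, a filled point for each of the 4 hydrogen water arrays and a line at the hydrogen water mean. Cd14 is the gene whose groups do not overlap. In Stab2 and Lyve1, 3 of the 4 hydrogen water arrays lie above all controls.

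The stellate and matrix markers had lower means after hydrogen water in 7 of 11 cases, with a median change of -0.12 and a range of -0.50 to 0.30. Leaving out the first hydrogen water array gave a median of -0.20, leaving out the second gave -0.081, and array brightness as a covariate gave -0.20. Of the 11, 0 were called and 1, Bgn, had an unadjusted p under 0.05. The interval lay within 1.5-fold for 6 of the 11, so a change of that size remained within the error of the other 5. The label does not decide the source of these transcripts, since fibroblasts of the portal tract and vessel walls also make them.

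Bgn, biglycan, is a small proteoglycan that binds collagen. It read 7.99, 7.71, 7.81 and 8.27 in controls and 7.51, 7.66, 7.77 and 7.61 after hydrogen water. Only hydrogen water array 3 lay above the lowest control. The change was -0.31 ± 0.13, with 1.24-fold higher signal in controls and an adjusted p of 0.356 in limma, and it was -0.20 without control 4. Pdgfrb, the receptor that drives stellate cell proliferation, read 5.67, 5.83, 6.28 and 5.59 in controls and 5.36, 5.06, 6.05 and 4.92 after hydrogen water. In both groups array 3 was the high one, and the change was -0.50 ± 0.25 (adjusted p = 0.461). The Pdgfrb probe set is of a kind that can bind several transcripts, and the gene's other 2 probe sets were below the filter.

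Col1a1 encodes the alpha 1 chain of type I collagen, the main collagen of scar. It read 7.05, 6.57, 6.21 and 6.41 in controls and 6.59, 6.25, 5.79 and 5.93 after hydrogen water. The 2 lowest arrays were hydrogen water 3 and 4, the highest was control 1, and the others interleaved. The change was -0.42 ± 0.21 (adjusted p = 0.462 in limma), while a second, dimmer Col1a1 probe set gave -0.08 ± 0.22. Without control 1 the change of the first was -0.26. Vim, vimentin, the intermediate filament of mesenchymal cells, read 7.85, 8.28, 7.92 and 7.79 in controls and 8.11, 7.70, 7.49 and 7.23 after hydrogen water. Hydrogen water array 1 lay among the controls and the other 3 lay below them, with a change of -0.33 ± 0.18 (adjusted p = 0.514). The change was -0.19 without hydrogen water array 4 and -0.57 with array brightness as a covariate.

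The other collagens and matrix genes had smaller changes. Col3a1, of type III collagen, had -0.12 (95% interval -0.30 to 0.06) and Col4a1, of basement membrane collagen, had 0.04 (-0.30 to 0.37). Col1a2, the partner chain of Col1a1, had -0.12 (-0.47 to 0.24), and its second probe set gave -0.36 ± 0.20. Dcn, decorin, had the highest change of the group, 0.30, with an interval of -0.17 to 0.76. Sparc, a collagen-binding glycoprotein, had 0.15 (-0.05 to 0.36) on 1 probe set and -0.13 on the other, so its sign was not settled. Timp1 had 0.07 (-0.31 to 0.45) and Lrat had -0.15 (-0.47 to 0.18).

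Within the groups, the macrophage markers moved together from array to array. After each group mean was subtracted, the median Pearson r over the 66 pairs of macrophage markers was 0.64 across the 8 arrays, and 60.6% of pairs were above 0.5. The median was 0.09 over 28 endothelial pairs, 0.15 over 55 stellate and matrix pairs, and 0.00 over all pairs of the 9106 tested genes, of which 13.6% were above 0.5. Between macrophage and endothelial markers it was 0.03, and between macrophage and stellate markers -0.02. These are descriptions over 8 arrays that share their hybridization and normalization, with no test.

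The mean deviations of the macrophage markers were largest in 2 controls. Control 3 was the lowest control for 9 of the 12 markers and control 4 the highest for 10, and hydrogen water array 2 was the highest of its group for 9. The mean deviation of the 12 markers from their means was 0.00, -0.07, -0.22 and 0.23 in the controls and -0.03, 0.13, -0.08 and 0.05 after hydrogen water. The hydrogen water arrays all lay inside the range of the controls. Leaving out 1 array at a time gave a median r of 0.48 to 0.74, and leaving out controls 3 and 4 together gave 0.28. These 2 controls were picked as the lowest and highest for these markers, which narrows the range. The lower r therefore does not show that the pattern rests on them. The first principal component was taken over the 9106 tested genes, each by its brightest tested probe set, with group means subtracted. It held 24.2% of the variance. Its scores were -0.54, -8.59, 14.7 and -5.59 in the controls and -6.27, -14.7, 21.8 and -0.88 after hydrogen water. Control 3, the lowest control for these markers, had the highest control score, and hydrogen water 2, the highest of its group, had the lowest score. Control 4, the highest control for 10 of the 12 markers, had -5.59, while the lowest control score was -8.59 in control 2. The part of this array-wide pattern in the co-variation was not tested.

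**Figure D3:**
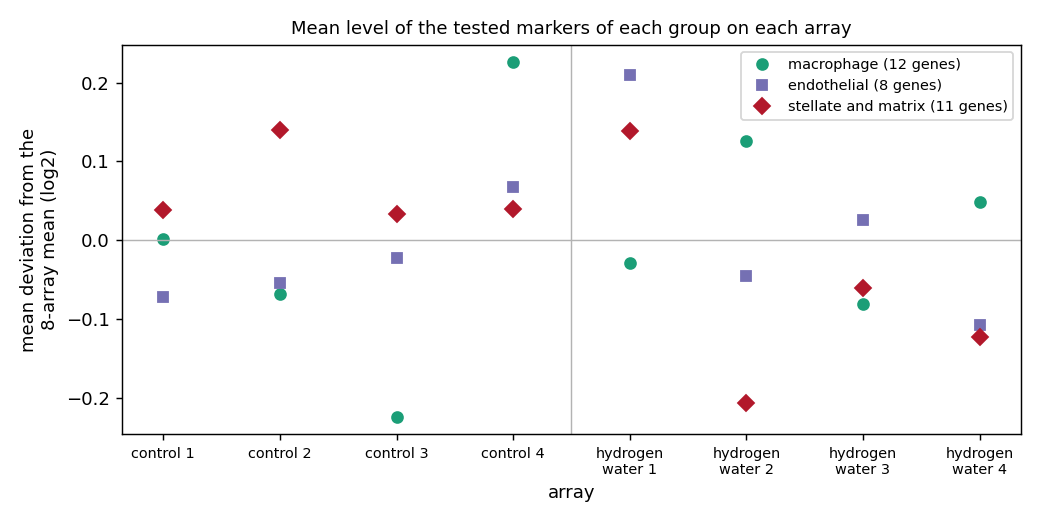
Mean deviation of the 12 macrophage, 8 endothelial and 11 stellate and matrix markers from their mean log2 level over 8 arrays (vertical axis), on each of the 4 control and 4 hydrogen water arrays. Macrophage markers run from -0.22 in control 3 to 0.23 in control 4, a range that holds all hydrogen water arrays.

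Clustering of the 31 markers on their array-to-array pattern cut across the cell type labels in part. When the tree was divided into 3 clusters, the first held 15 genes with a median r of 0.65: 10 macrophage markers with Kdr, Pecam1, Lrat, Sparc and Bgn. A second cluster of 11 genes, with a median r of 0.50, held Col1a2, Col3a1, Col4a1, Dcn, Pdgfrb and Timp1 of the matrix group, Stab1, Lyve1, Tek and Eng of the endothelial group, and Cd68. Its median r to the first cluster was -0.32. With group means subtracted, hydrogen water array 1 was high in this second cluster, at 0.25, and array 2 low, at -0.31. The last cluster held Cd14, Stab2, Vwf, Col1a1 and Vim, with a median r of 0.50. Cd14 and Cd68 thus stood apart from the other 10 macrophage markers in this description.

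**Figure D4:**
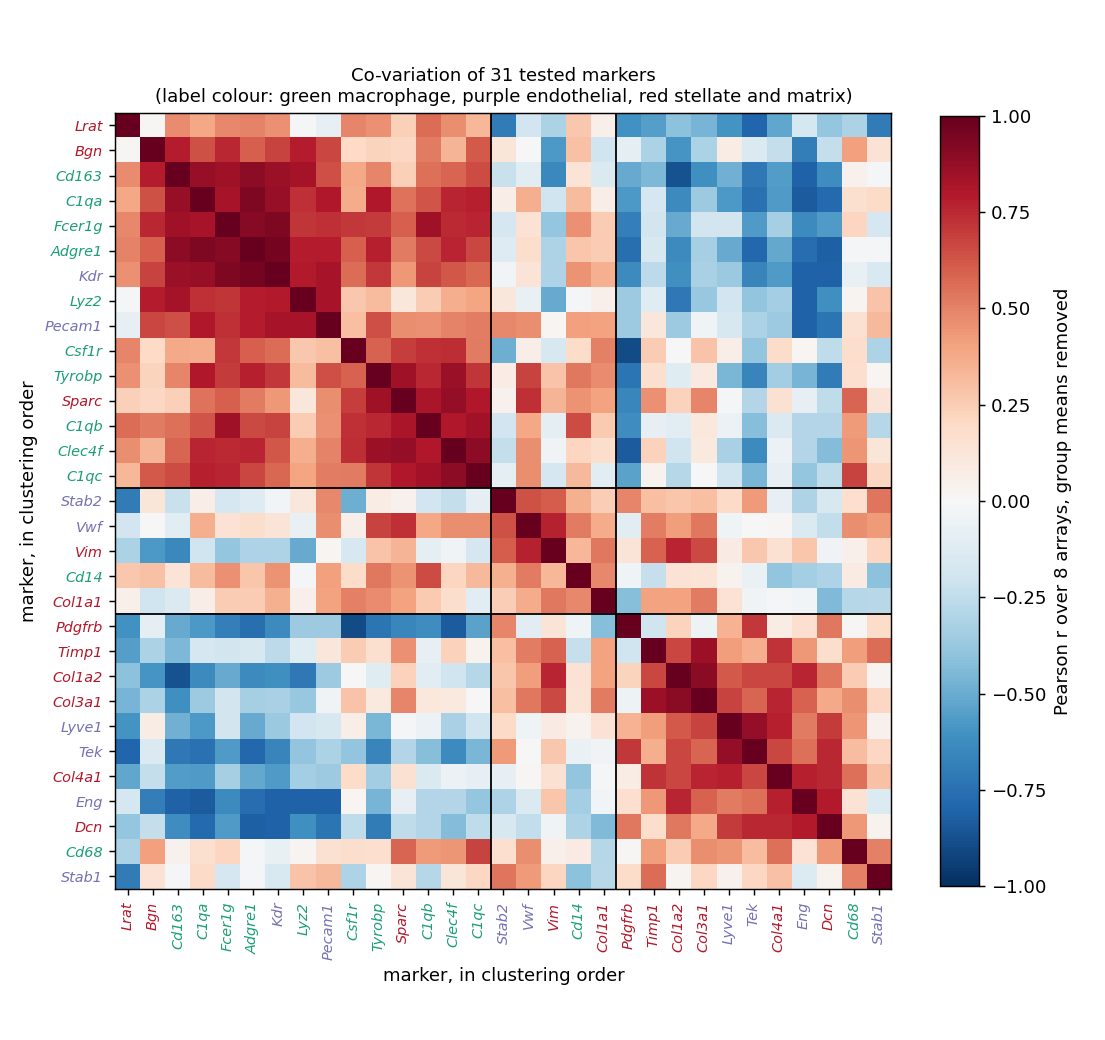
Pearson r between each pair of the 31 tested markers over 8 arrays after subtraction of group means (colour scale, red positive and blue negative), with genes in clustering order, lines between the 3 clusters and names coloured by cell type. The block of 15 genes that holds 10 macrophage markers is mostly red (median r 0.65) and its overlap with the block of 11 genes mostly blue (median r -0.32).

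Pairs of subunits or co-markers were tested 1 by 1, with permutation within the groups. Of 10 pairs with both genes measured, 0 passed after adjustment by Pearson's r or by Spearman's rho, and 2 and 3 had an unadjusted exact p under 0.05. The C1q chains, whose genes C1qb, C1qc and C1qa lie next to each other on chromosome 5, had positive r. It was 0.84 for C1qb and C1qc (rho 0.64; exact permutation p = 0.127 and 0.149, adjusted 0.203 and 0.299). It was 0.78 for C1qa and C1qc (rho 0.71; exact permutation p = 0.0226 and 0.0729, adjusted 0.113 and 0.182), and 0.63 for C1qa and C1qb (rho 0.74; exact permutation p = 0.142 and 0.0156, adjusted 0.203 and 0.150). Without the 2 arrays farthest from the median of the pair's first-named gene, r was 0.39, 0.36 and 0.73. Leaving out the extremes of 1 gene narrows its range, so a lower r does not show that a relation rests on those arrays.

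Tyrobp and Fcer1g, adaptors that signal for the same receptor families, had an r of 0.70 (rho 0.50; exact permutation p = 0.0694 and 0.260, adjusted 0.153 and 0.371), and 0.39 without the 2 farthest arrays. Csf1r and Clec4f had 0.74 (rho 0.50; exact permutation p = 0.0764 and 0.267, adjusted 0.153 and 0.371), and 0.05 without them. Tek and Kdr, both receptor kinases of endothelium, had a negative r of -0.66 (rho -0.64; exact permutation p = 0.0122 and 0.0451, adjusted 0.113 and 0.150), and -0.48 without the 2 farthest arrays. Without normalization the r of Tek and Kdr was 0.31, so its sign depended on the scaling. Stab1 and Stab2 had an r of 0.54 (rho 0.52; exact permutation p = 0.0521 and 0.0347, adjusted 0.153 and 0.150), and 0.64 without the 2 farthest arrays. The 2 listed collagen pairs, both with Col1a1, had r of 0.40 for Col1a1 and Col1a2 (rho 0.14) and 0.52 for Col1a1 and Col3a1 (rho 0.45), and -0.09 and -0.03 without the 2 farthest arrays. Pairs of the other collagen chains were not listed and had no test. Over the same 8 arrays their r was 0.90 for Col1a2 and Col3a1, 0.76 for Col3a1 and Col4a1, and 0.67 for Col1a2 and Col4a1. Dcn and Bgn had -0.24 (rho -0.21). The adjusted exact permutation p for r was 0.411 for Col1a1 and Col1a2, 0.297 for Col1a1 and Col3a1, and 0.477 for Dcn and Bgn.

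Further genes of the 3 cell types gave the same count of 0. Of 139 further marker, ligand and receptor genes, 104 were tested, 0 were called in limma, 14 had an unadjusted p under 0.05 (13.5%, beside 12.5% of the array) and 8 had groups without overlap (7.69%, beside 7.48%). Without control 3 the number called was 1, Gata4 (change -0.68, adjusted p = 0.0359). In the macrophage list of 39 genes, 28 were tested, with a median change of -0.01. The smallest p values belonged to Lcp1, an actin-bundling protein of leukocytes (-0.41 ± 0.13, adjusted p = 0.207 in limma), Ctss, the antigen-processing protease cathepsin S (0.29 ± 0.10, 0.230), and Mertk, the receptor for apoptotic cells (-0.30 ± 0.12, 0.319).

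In the further endothelial list of 44 genes, 31 were tested, the median change was -0.05 and 8 had an unadjusted p under 0.05 (25.8%), 4 in each direction. Gata4, a transcription factor of sinusoidal endothelium that hepatocytes also carry, read 6.82, 6.81, 6.44 and 6.90 in controls and 6.11, 6.10, 6.37 and 6.10 after hydrogen water. All controls lay above all hydrogen water arrays, with a change of -0.57 ± 0.14 (adjusted p = 0.0808 in limma). Ptprb, the endothelial phosphatase that restrains Tek, read 7.99, 7.97, 7.90 and 7.99 in controls and 8.40, 8.25, 8.31 and 8.22 after hydrogen water. The groups were separate, with a change of 0.34 ± 0.09 (adjusted p = 0.101), the reverse direction. Vegfa, the ligand of Kdr and made mostly by hepatocytes and other cells around the vessel, was lower on all 4 hydrogen water arrays, with a change of -0.34 ± 0.12 (adjusted p = 0.258).

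In the further stellate and matrix list of 56 genes, 45 were tested, the median change was 0.00, 3 had an unadjusted p under 0.05 (6.67%) and 0 had groups without overlap. They were Lamc1, a laminin chain (0.47 ± 0.15, adjusted p = 0.220 in limma), Mmp14, a membrane-bound collagenase (-0.29 ± 0.10, 0.267), and Col14a1, a fibril-associated collagen (-0.31 ± 0.14, 0.384).

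Few genes of the lymphocyte, neutrophil and mesothelial lists passed the brightness filter, while single erythroid, cholangiocyte and monocyte genes lay well above it, such as Hbb, a haemoglobin chain, at a mean of 11.72 in controls and 12.03 after hydrogen water. All 14 hepatocyte genes were tested, 0 were called and their median change was -0.01. Their mean log2 level was 12.53 to 12.62 in controls and 12.56 to 12.65 after hydrogen water. Several of them lie at the top of the scale, where quantile normalization gives the arrays shared values. Hp, for example, read 13.36 on all 4 controls. Even levels there are therefore partly set by that step. Of 16 lymphocyte genes with a probe set, 13 lay below the filter, with a mean level of 3.82 to 4.23 in controls and 3.61 to 4.02 after hydrogen water. Neutrophil genes were tested in 1 of 7 cases and mesothelial genes in 1 of 5. Among 7 monocyte genes, which blood left in the sinusoids can carry, 3 were tested, all with an unadjusted p under 0.05 and none called. They were Plac8 (0.35 ± 0.16, adjusted p = 0.394 in limma), Itgal (0.32 ± 0.14, 0.393) and S100a6 (-0.55 ± 0.22, 0.337), of both signs. The mean of the 7 was 4.51 to 4.85 in controls and 4.52 to 5.18 after hydrogen water. Erythroid genes had a mean of 5.43 to 5.98 in controls and 4.95 to 6.36 after hydrogen water, and platelet genes 3.71 to 4.20 and 3.44 to 4.14, each with 0 called. Of 4 cholangiocyte genes tested, Krt18, a keratin that hepatocytes share, had the smallest adjusted p, 0.0576, with a change of -0.71 ± 0.15 and no overlap. What part these cells had in the levels of the Kupffer, endothelial and stellate markers was not tested.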

How the data were processed

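Liver RNA was measured on 8 arrays, 4 per group, grouped by their labels. The deposited values are linear intensities that the authors made with MAS5, per the submitters' processing notes; no version or scaling target was given in the sources used here. The 57 control probe sets were left out and the others quantile-normalized. A pseudocount of 2.05 (10% of the median, 20.5) was added, and the 15521 probe sets with a mean log2 level at or above the median, 4.42, were tested with limma 3.58.1 (lmFit, eBayes with trend) in R 4.3.3, with Benjamini-Hochberg adjustment over all of them and a threshold of 0.05. The fit was tested on simulated data. A gene is represented by its brightest probe set. The arrays' number limits the precision.

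The members and lists were chosen with earlier results of these data known. Array values are given for the 4 tested markers of each cell type with the smallest p and any with an unadjusted p under 0.05 or no overlap, and for each further list of the 3 cell types the 3 genes with the smallest p are named. Genes of other cell types, the array values of Gata4 and Ptprb, and Lox were chosen for naming after their values were seen. Scaling, pseudocount, filter, prior, array brightness, a replicate block and single arrays were varied.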

Additional observations from a re-analysis of the deposited data

Results flagged for a closer look

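Cd14 was low in 1 control: the log2 level of control 3 was 9.37, while the other controls lay between 9.55 and 9.59. The gap to the nearest control was 0.835 of the group's range, above Dixon's 95% critical value for 4 samples. Such a gap was looked for in both groups of each of the 31 tested markers, 62 in all, and this was the 1 found. Chance alone gives it in about 1 group in 20. Control 3 was also the lowest control for 9 of the 12 macrophage markers.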

How the results depend on the processing

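Without normalization (median of all probe sets -0.33), 505 probe sets were called in place of 128, 11 markers had an unadjusted p under 0.05 in place of 5, 5 had no overlap in place of 1, 7 had a 95% interval within 1.5-fold in place of 21, and 2 further genes, Gata4 and Lcp1, were called in place of 0. The macrophage, endothelial and stellate medians were then -0.28, -0.36 and -0.46, and Cd14 (-0.059), Fcer1g (-0.21), C1qb (-0.18) and the pairs Dcn and Bgn (0.030) and Tek and Kdr (0.31) turned sign. Median centring gave 8 markers with an unadjusted p under 0.05, 2 without overlap and 1 further gene called (Gata4). Spike-in scaling gave 3 without overlap. Shares of all probe sets with a low p, no overlap or a narrow interval were not counted under these settings. These counts are therefore not read as results about the markers. The highest medians over settings that kept all arrays or left out controls 3 and 4 were 0.11, 0.037 and -0.079. The sign of the endothelial median was thus not settled. Nor was that of the macrophage median, which was -0.28 without normalization and -0.012 without control 3. Without the prior trend 64 probe sets were called, and with array brightness as a covariate 18, with 1 marker at an unadjusted p under 0.05. With group means not subtracted, 1 pair passed (C1qb and C1qc, r 0.86) and r for Stab1 and Stab2 was -0.056. Whether replicate numbers pair the arrays is not known. The deviations of same-numbered arrays correlated at -0.11, 0.04, 0.23 and 0.00, and differently numbered arrays were not compared. On the first principal component, same-numbered arrays had scores of the same sign for every number. With a replicate block, 181 probe sets and 0 markers were called; it changed no call among the markers.

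Leaving out 1 array at a time gave 55 to 197 probe sets called (59, 197 and 58 without controls 2, 3 and 4, and 61, 55 and 71 without hydrogen water arrays 1, 3 and 4), 0 to 1 markers called (Lyve1, without hydrogen water array 2), 3 to 7 with an unadjusted p under 0.05, 1 to 3 without overlap (which fewer arrays make easier) and 0 to 1 further genes called (Gata4, without control 3). C1qb ran from -0.004 to 0.26, the r of Col1a1 with Col1a2 from -0.16 to 0.60, and with Col3a1 from -0.12 to 0.72. An alternative chosen after seeing the data, without controls 3 and 4, gave 69 probe sets called, 2 markers with an unadjusted p under 0.05, 4 without overlap, a change of 0.034 for Stab1, and a macrophage median r of 0.28. Pdgfrb and Col1a1 have no value under the stricter filter. With arrays left out, the shares of all probe sets with a low p or without overlap were not counted. The cause of these shifts was not tested, and 4 arrays per group limit what can be called.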

Other observations

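Lox, lysyl oxidase, which cross-links collagen and was in the further matrix list, fell into separate levels that did not follow the groups. It was singled out after its values were seen. On its brighter probe set the log2 levels were 4.12, 9.28, 8.34 and 8.74 in controls 1 to 4 and 8.61, 3.43, 8.79 and 4.42 in hydrogen water arrays 1 to 4. Control 1 and hydrogen water arrays 2 and 4 were thus near the brightness filter or below it, and the other 5 arrays were high. A second probe set separated the same 3 arrays, with 3.02, 8.15, 7.08 and 6.75 in controls and 6.66, 3.59, 7.19 and 3.35 after hydrogen water. The range over the 8 arrays, 5.85, was number 8 in order of width among 15521 tested probe sets. The change between groups was -1.31 ± 1.36 (SE, n = 4 per group), with an adjusted p of 0.776 in limma. None of the tested collagen markers had such a split.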
